A study of Mus musculus with 5 samples.

Results

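The posterior genes of the mouse Hoxa cluster and their neighbour Evx1 were examined for H3K27me3, histone H3 that carries 3 methyl groups on lysine 27. The 7 genes were Hoxa6, Hoxa7, Hoxa9, Hoxa10, Hoxa11, Hoxa13 and Evx1, taken by name from the 21938 protein-coding genes of the GENCODE M21 annotation. Every deposited peak that touched the gene body or the 5 kb on either side of it was counted. These windows held 49 of the 22757 peaks called in H3K27me3 replicate 1 against its input, 64 of the 24881 peaks called in the same library against IgG, and 31 of the 33379 peaks called in replicate 2 against its input.

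The material was the mesenchyme of molars from wildtype C57BL/6 mice at postnatal day 3, after the dental epithelium had been taken off. The 5 libraries were 2 immunoprecipitated with an antibody to H3K27me3, 2 of input chromatin and 1 with nonspecific IgG. All 5 came from wildtype tissue, so no comparison between genotypes or treatments was possible. The labels do not say whether the libraries came from separate animals or pools, so an SD here is the spread between 2 libraries, which may be technical.

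H3K27me3 is placed by Polycomb repressive complex 2, whose catalytic subunit is usually Ezh2, and marks genes that are kept silent. Hox genes encode homeodomain transcription factors that give the body axis its regional identity, and their order along the chromosome follows the order of their expression from head to tail. The jaws and teeth form from cranial neural crest and pharyngeal arch tissue ahead of the domains of the posterior Hoxa genes. Silent Hox clusters are textbook targets of Polycomb, where the mark commonly spreads over whole clusters. A repressive mark does not measure expression, and no RNA was examined here.

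The 6 Hoxa genes lay on the minus strand of chromosome 6 of build GRCm38, in the order Hoxa6, Hoxa7, Hoxa9, Hoxa10, Hoxa11 and Hoxa13 with increasing coordinate, and Evx1 lay beyond Hoxa13 on the plus strand. The windows of neighbours overlapped and merged into 3 stretches of 77.591 kb in all, chr6:52201288-52250810 from Hoxa6 to Hoxa11, chr6:52252694-52265880 around Hoxa13 and chr6:52308498-52323378 around Evx1. The annotated body of Hoxa3 ran across Hoxa4, Hoxa5 and Hoxa6, so peaks at Hoxa6 also lay within Hoxa3.

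**Figure D1:**
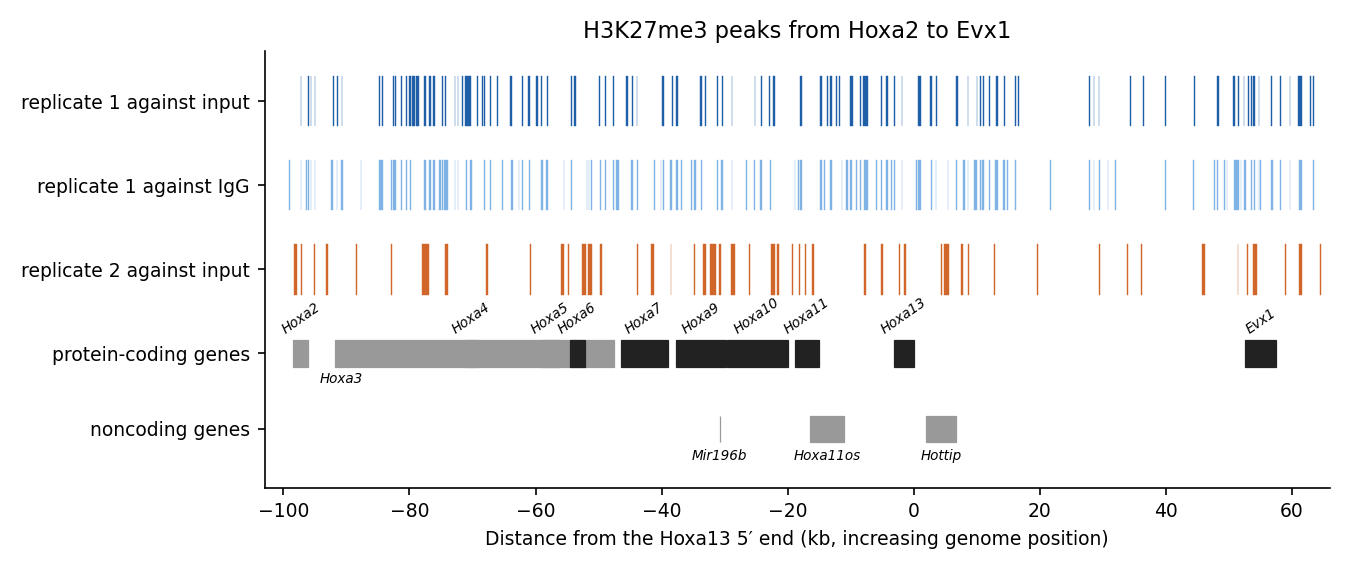
H3K27me3 peaks of the 3 lists, drawn to scale with a thin outline, from Hoxa2 to Evx1. The horizontal axis is the distance in kb from the annotated 5′ end of Hoxa13, black boxes are the 7 genes described here, grey boxes are other genes, and the peaks lay scattered across the cluster as many short segments.

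To determine which bases were marked in every list, the peaks of the 3 lists were intersected. The intersection held 8 segments of 13 bp to 517 bp, 1248 bp in all. Of these, 2 lay in exons, 1 in an intron and 5 in flanks outside the 7 gene bodies. The exonic segments were chr6:52216997-52217041 in Hoxa7 and chr6:52231994-52232066 in Hoxa10. The shortest segments outside exons were chr6:52211128-52211178 upstream of Hoxa6 and chr6:52312318-52312330 upstream of Evx1.

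The other 4 segments are shown because they were the longest stretches marked in every list. All are plus strand of GRCm38.p6, and capitals mark CpG dinucleotides. The first, chr6:52253004-52253256, lay 7194 bp upstream of the Hoxa11 5′ end but inside the Hoxa13 window, where its peaks were counted. The second, chr6:52255641-52255832, lay 5048 bp from the 5′ end of Hoxa13 on its 3′ side. The third, chr6:52314936-52315039, lay in an intron of Evx1. The fourth, chr6:52321972-52322488, lay beyond the 3′ end of Evx1, and its central bases chr6:52322081-52322380 are printed.
Segment upstream of Hoxa11: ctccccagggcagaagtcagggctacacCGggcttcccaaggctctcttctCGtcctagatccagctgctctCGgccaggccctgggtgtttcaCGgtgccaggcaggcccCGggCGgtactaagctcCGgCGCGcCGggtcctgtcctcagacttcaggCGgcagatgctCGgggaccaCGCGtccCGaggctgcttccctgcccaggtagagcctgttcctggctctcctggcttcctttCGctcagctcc
Segment downstream of Hoxa13: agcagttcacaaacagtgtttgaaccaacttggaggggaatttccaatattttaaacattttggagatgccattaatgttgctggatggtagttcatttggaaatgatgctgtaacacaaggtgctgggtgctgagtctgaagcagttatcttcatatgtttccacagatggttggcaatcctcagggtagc
Segment in the Evx1 intron: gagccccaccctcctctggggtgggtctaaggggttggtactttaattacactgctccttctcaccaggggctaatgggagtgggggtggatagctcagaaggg
Segment downstream of Evx1: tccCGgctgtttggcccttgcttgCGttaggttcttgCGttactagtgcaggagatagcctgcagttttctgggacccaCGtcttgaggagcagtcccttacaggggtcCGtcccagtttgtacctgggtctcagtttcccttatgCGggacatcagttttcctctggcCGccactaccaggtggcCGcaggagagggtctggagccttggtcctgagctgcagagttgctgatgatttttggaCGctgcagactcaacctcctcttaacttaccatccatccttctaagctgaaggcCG

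These 4 sequences differed widely in CpG content. The segment upstream of Hoxa11 held 16 CpGs and was 66.8% G or C, whereas the segment downstream of Hoxa13 held 0 CpGs and was 41.7% G or C. The Evx1 intron segment also held 0 CpGs, and the 300 printed bases downstream of Evx1 held 10. The fold enrichment of the peaks behind the 4 segments was alike, at 2.61 upstream of Hoxa11, 2.62 downstream of Hoxa13, 2.79 in the Evx1 intron and 2.83 downstream of Evx1 in replicate 1 against input. In replicate 2 the fold enrichments of these segments were 2.55, 2.54, 2.49 and 2.45, in the same order.

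All 7 genes held a peak in their window in each of the 3 lists. Over all protein-coding genes, 25.0% did so in replicate 1 against input, 25.9% with IgG as control and 35.7% in replicate 2, 15.7% did so in both replicates against input and 12.7% in all 3 lists. The windows of the 7 genes were covered by peaks over 14.0% of their bases in replicate 1 against input, 18.1% with IgG as control and 13.2% in replicate 2. The mean of the replicates against input was 13.6% ± 0.548 (SD, n = 2). The whole assembly was covered over 0.113%, 0.126% and 0.245%, in the same order, so the windows stood 124, 143 and 54.0 times above it. The genes were taken up because peaks at Hox genes were already known in these lists, so these shares describe the locus and are no test of it.

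Taken over all windows together, the covered share was close between the replicates although the number of peaks was not. The windows held 6.32 peaks per 10 kb in replicate 1 against input and 3.995 in replicate 2. Peaks were longer in replicate 2, with a median of 299 bp compared with 183 bp in replicate 1 against input and 178 bp against IgG. The medians of the full lists were 181 bp, 119 bp and 120 bp, respectively, all shorter than at these genes. Peaks over 400 bp made up 35.5% (11 of 31) of the peaks at the 7 genes in replicate 2, compared with 3.20% of the full list. In replicate 1 against input they made up 12.2% (6 of 49) compared with 1.38%, and against IgG 9.38% (6 of 64) compared with 1.77%. The longest peak at these genes reached 1053 bp, and it lay in Hoxa9 in replicate 2, at chr6:52228530-52229582. Depth and tag length differed between the replicates as well, with 30369351 tags of 49 bp kept in replicate 1 and 49947919 tags of 74 bp in replicate 2. The fragment length in the file headers also differed, at 46 bp in replicate 1 and 71 bp in replicate 2. The shortest peaks at these genes were 50 bp in replicate 1 against input, 46 bp against IgG and 71 bp in replicate 2. None of these settings can be told apart from the replicate, and their part in peak length was not tested.

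The peaks were low, with few tags overlapping at a position on average. This height is a depth and not the number of tags in a peak. The mean number of overlapping H3K27me3 tags per peak had a median of 4.49 in replicate 1 against input, 4.60 with IgG as control and 6.41 in replicate 2. The highest peak at these genes had a mean of 6.00, 5.89 and 7.67 overlapping tags. The corresponding medians of the full lists were 4.09, 4.22 and 6.16, so the peaks at Hoxa and Evx1 stood little above an ordinary peak in height and differed more in length. The deposited fold enrichment over the control had a median of 2.78, 2.76 and 2.53 at these genes, compared with 2.63, 2.66 and 2.45 in the full lists. The deposited −log10 q, which corrects for the number of tests, was above 0 for 0 of 49, 0 of 64 and 2 of 31 peaks and reached 0.00373, so no single peak passed a correction. With so few overlapping tags, where a single peak begins and ends carries counting error.

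**Figure D2:**
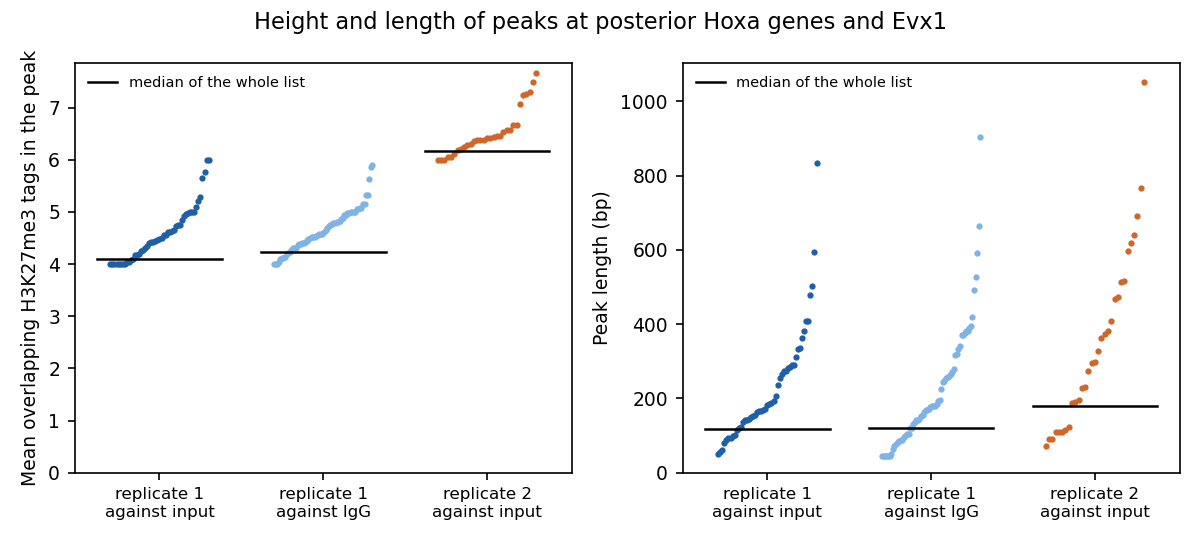
Height (left, mean number of overlapping H3K27me3 tags in the peak) and length (right, bp) of every peak at the 7 genes, sorted within each list, with the median of the full list as a line. Heights lay within a few tags of the line in each list, while lengths ran up to 833 bp, 905 bp and 1053 bp.

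Hoxa13, at the posterior end of the cluster (ENSMUSG00000038203.18, chr6:52257694-52260880), patterns the digits and the urogenital tract. Its window was covered over 18.4% in replicate 1 against input, 21.6% with IgG as control and 12.4% in replicate 2, and held 8, 11 and 6 peaks. The mean of the replicates was 15.4% ± 4.30 (SD, n = 2), the highest of the 7 genes. Most of that coverage lay outside the gene, whose body is the smaller part of the window and held 2 peaks in each list. The body was covered over 6.68%, 7.12% and 19.0%, less than the window in both replicate 1 lists and more in replicate 2. The long peak chr6:52261549-52262050, 669 bp upstream of the 5′ end, was called in replicate 1 against input, and an almost equal one, chr6:52261545-52262036, against IgG. In replicate 2 the nearest peak, chr6:52259295-52259668, lay inside the gene at 1212 bp from that end.

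Hoxa11 (ENSMUSG00000038210.10, chr6:52242106-52245810) patterns the forearm and lower leg and the female reproductive tract. Its window was covered over 13.9%, 14.7% and 11.7% in the same order of lists. The mean of the replicates was 12.8% ± 1.53 (SD, n = 2), with the smallest spread of the 7 windows. The gene body alone was covered over 7.83%, 11.9% and 16.1%. There the SD of the replicates against input was 5.82, no longer the smallest. The peak chr6:52245951-52246331, 141 bp upstream of the 5′ end, was called with the same borders against both controls of replicate 1, with a fold enrichment of 3.09 against input and 2.99 against IgG. Replicate 2 had no peak there. Its longest stretch without a peak between Hoxa6 and Hoxa13, 7923 bp at chr6:52245006-52252928, began inside Hoxa11 and ran upstream of it. The corresponding longest stretch was 4045 bp in replicate 1 against input and 3849 bp against IgG, both from inside Hoxa10 towards Hoxa11.

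Hoxa10 (ENSMUSG00000000938.11, chr6:52231197-52240854) patterns the lumbar spine, the thigh and the uterus. It was covered over 8.57% in replicate 1 against input, 11.0% with IgG as control and 21.5% in replicate 2, with 10, 12 and 11 peaks in its window. The replicate 2 share was the highest among all 21938 protein-coding genes (rank 1), whereas in replicate 1 against input Hoxa10 ranked 107. Its mean was 15.1% ± 9.17 (SD, n = 2), and this spread was the widest of the 7 genes. The number of peaks hardly differed between the replicates, and the replicate 2 peaks were longer.

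Hoxa9 (ENSMUSG00000038227.15, chr6:52223100-52231089), a regulator of blood progenitors, repeated this pattern. It was covered over 8.49%, 14.3% and 18.1%, with 9, 14 and 8 peaks, and ranked 109, 52 and 7 among protein-coding genes. Its mean was 13.3% ± 6.80 (SD, n = 2). The window of Hoxa9 overlaps that of Hoxa10, so the 2 genes share peaks and are not independent. Hoxa9 also had the most exonic peaks of the 7 genes, with 4 in replicate 1 against input, 7 with IgG as control and 3 in replicate 2.

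Within the annotated body of Hoxa9, towards Hoxa10, lies Mir196b, a microRNA gene whose products act on Hox messenger RNAs. Its hairpin, chr6:52230081-52230165 on the minus strand, lay wholly within the replicate 2 peak chr6:52229982-52230343. In replicate 1 no peak overlapped the hairpin. The replicate 1 peak nearest its 5′ end was 349 bp from that end against input and 150 bp with IgG as control. The mature sequences, from RefSeq for GRCm38.p6, are shown because the peak spanned both arms, and capitals mark the seed, bases 2 to 8.
miR-196b-5p: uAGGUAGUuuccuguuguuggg
miR-196b-3p: uCGACAGCacgacacugccuuc

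Hoxa7 (ENSMUSG00000038236.8, chr6:52214491-52221854) takes part in patterning the thoracic vertebrae. Its window was covered over 12.2%, 18.0% and 8.40%, with 9, 15 and 6 peaks, and its mean of 10.3% ± 2.69 (SD, n = 2) was the lowest of the 7 genes. Even so, only 91 of 21938 protein-coding genes were covered at least as much in replicate 2. The peak of highest fold enrichment at the 7 genes in replicate 1 against input, chr6:52215181-52215588 at 3.28-fold, lay over an exon of Hoxa7, and it was not overlapped in either other list.

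Hoxa6 (ENSMUSG00000043219.9, chr6:52206288-52208722) takes part in vertebral patterning and marks the anterior border of the group. It was covered over 11.7%, 13.7% and 16.7%, with 7, 11 and 5 peaks and a mean of 14.2% ± 3.47 (SD, n = 2). In replicate 2 a 514 bp peak, chr6:52208297-52208810, spanned its 5′ end. In replicate 1 against input the nearest peak was 1450 bp away, inside the gene. The peaks of highest fold enrichment in the replicate 2 list at these genes both lay in the flanks of Hoxa6, at chr6:52206102-52206193 (2.97-fold) and chr6:52209136-52209827 (2.85-fold), and they were the only 2 with a −log10 q above 0.

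Evx1 (ENSMUSG00000005503.8, chr6:52313498-52318378), a homeobox gene related to even-skipped that acts in the posterior embryo and in spinal interneurons, lies apart from the cluster. It was covered over 18.7% in replicate 1 against input, 24.6% with IgG as control and 10.2% in replicate 2, with 12, 15 and 5 peaks. Its mean was 14.4% ± 5.99 (SD, n = 2). Evx1 ranked highest of the 7 genes in both replicate 1 lists, at 10 against input and 6 against IgG, and ranked 69 in replicate 2. Its window held 3 of the 8 segments common to all lists.

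The order of the 7 genes was not the same in the 2 libraries. In replicate 1 against input Evx1 and Hoxa13 were highest and Hoxa9 and Hoxa10 lowest, while in replicate 2 Hoxa10 and Hoxa9 were highest and Hoxa7 and Evx1 lowest. By mean the order was Hoxa13, Hoxa10, Evx1, Hoxa6, Hoxa9, Hoxa11 and Hoxa7. No neighbouring pair in that order differed by more than the larger SD of the pair. Even the step from Hoxa11 to Hoxa7, the widest between neighbours, was 2.49 percentage points against an SD of 2.69. The order by mean also changed with the flank. With 10 kb on each side Hoxa7 was highest at 14.5% and Evx1 lowest at 10.6%. Without flanks Hoxa9 was highest at 18.0% and Hoxa7 lowest at 10.5%.

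**Figure D3:**
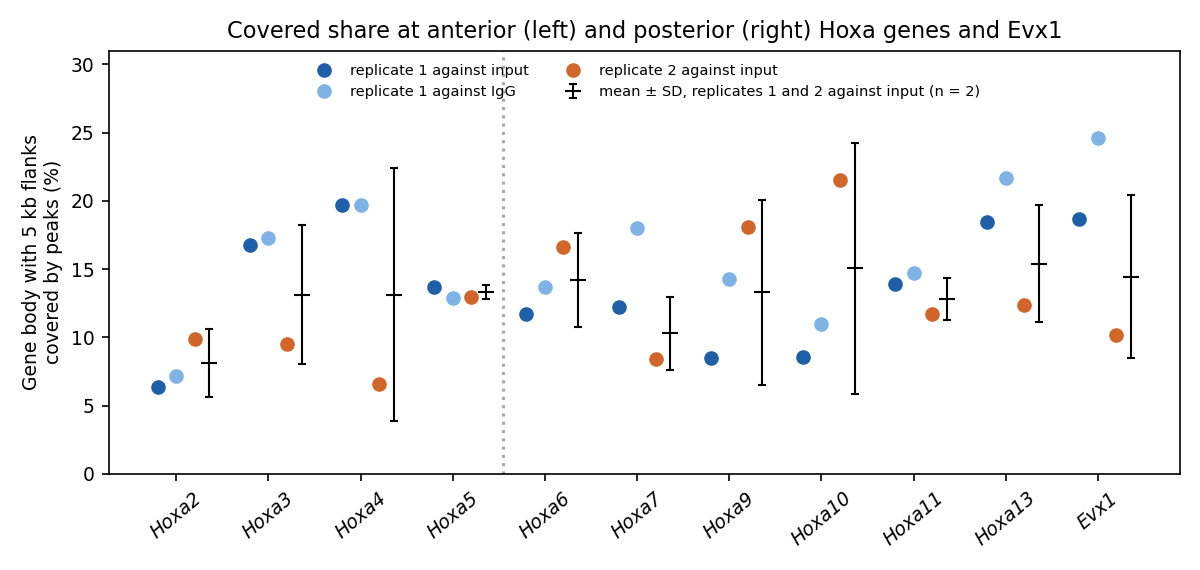
Percent of each gene body with 5 kb flanks that was covered by peaks, for Hoxa2 to Hoxa5 (left of the dotted line) and for the posterior Hoxa genes and Evx1 (right), with 1 point per list and a bar for the mean ± SD of the 2 replicates against input. Replicate 2 lay above replicate 1 at Hoxa6, Hoxa9 and Hoxa10 and below it at Hoxa7, Hoxa11, Hoxa13 and Evx1.

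The next question was whether peaks lay at the transcription starts. Within 1 kb of the annotated 5′ end, 5 of the 7 genes had a peak in replicate 1 against input, 6 with IgG as control and 6 in replicate 2. The share over all protein-coding genes was 3.87%, 4.52% and 4.16%, respectively. In both replicates against input a peak lay that close at 4 genes, namely Hoxa7, Hoxa9, Hoxa11 and Evx1, compared with 1.04% of all protein-coding genes. In all 3 lists a peak lay that close at 4 genes too, compared with 0.784%. The peak nearest the 5′ end was not the same in the replicates at any of these 4 genes. At Evx1, for example, the replicate 1 peak chr6:52313240-52313319 ended 179 bp upstream of the 5′ end and the replicate 2 peak chr6:52313811-52313932 began 313 bp downstream of it.

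The outermost annotated 5′ end can belong to a long transcript, so distances were also measured from the 8 RefSeq starts of the 7 genes. The RefSeq start lay inside the GENCODE gene by 3281 bp at Hoxa7, 3719 bp at Hoxa9 and 5915 bp at the proximal start of Hoxa10, and by 50 bp at Hoxa6. From these starts a peak lay within 1 kb at 5, 6 and 7 of 8 in the 3 lists, compared with 3.81%, 4.41% and 4.12% of all RefSeq starts. No other start had a peak as close as Hoxa9 in all of them, at 130 bp in replicate 1 against input, 117 bp with IgG as control and 29 bp in replicate 2. At the proximal start of Hoxa10 the distances were 692 bp, 474 bp and 19 bp. The choice of annotation moved Hoxa7 away from a peak in replicate 1, from 608 bp to 1532 bp, and moved Hoxa10 towards one, from 1991 bp to 692 bp.

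**Figure D4:**
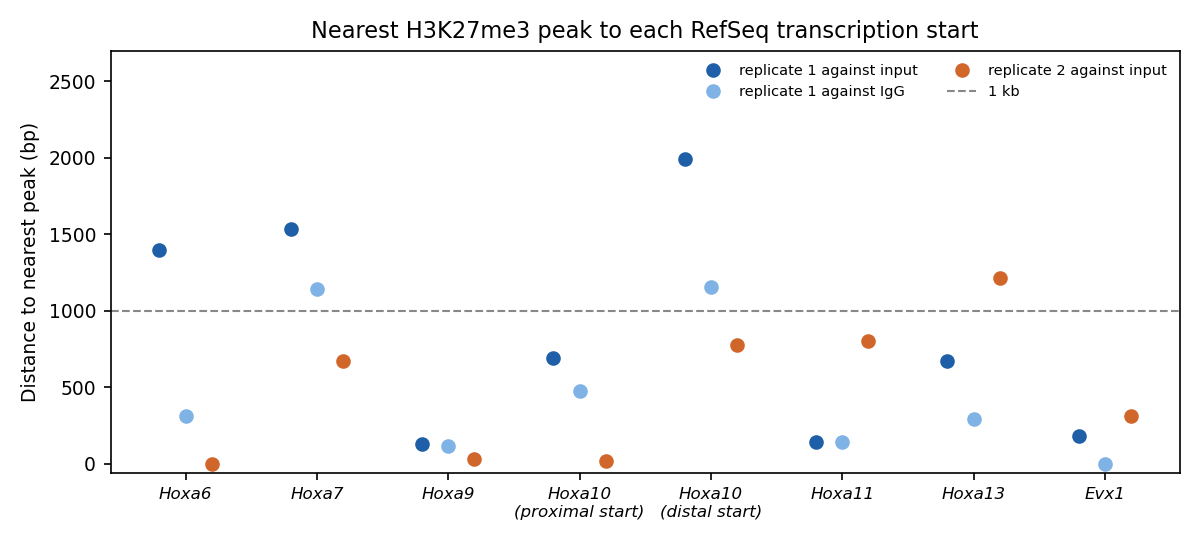
Distance in bp from each RefSeq transcription start to the nearest peak in each of the 3 lists, with a dashed line at 1 kb. Hoxa9 lay at 130 bp or less in every list, while Hoxa6 ranged from 0 bp in replicate 2 to 1400 bp in replicate 1 against input.

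Promoter sequences from RefSeq for GRCm38.p6 show where the peaks ended. Each is the 250 bases before the start, written 5′ to 3′ on the strand of the gene, and capitals mark bases within a peak called against input in replicate 1 or 2. Hoxa9 (chr6:52227371-52227620, minus strand), Hoxa11 (chr6:52245811-52246060, minus strand) and Evx1 (chr6:52313248-52313497, plus strand) are shown as promoters that a peak reached into. Hoxa13 (chr6:52260881-52261130, minus strand) is shown as an example of the promoters that no peak reached.
Hoxa9 promoter: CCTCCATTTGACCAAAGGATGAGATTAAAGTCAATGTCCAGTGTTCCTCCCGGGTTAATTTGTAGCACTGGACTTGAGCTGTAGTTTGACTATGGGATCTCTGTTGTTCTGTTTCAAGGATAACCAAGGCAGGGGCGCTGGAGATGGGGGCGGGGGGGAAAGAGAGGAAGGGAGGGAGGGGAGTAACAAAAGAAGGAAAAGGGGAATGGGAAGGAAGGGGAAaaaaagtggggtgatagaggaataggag
Hoxa11 promoter: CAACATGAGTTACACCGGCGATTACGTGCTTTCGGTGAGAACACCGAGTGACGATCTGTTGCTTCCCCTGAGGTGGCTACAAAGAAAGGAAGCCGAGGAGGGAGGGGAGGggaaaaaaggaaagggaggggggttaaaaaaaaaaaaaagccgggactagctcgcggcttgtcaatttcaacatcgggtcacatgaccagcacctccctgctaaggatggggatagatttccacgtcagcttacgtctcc
Evx1 promoter: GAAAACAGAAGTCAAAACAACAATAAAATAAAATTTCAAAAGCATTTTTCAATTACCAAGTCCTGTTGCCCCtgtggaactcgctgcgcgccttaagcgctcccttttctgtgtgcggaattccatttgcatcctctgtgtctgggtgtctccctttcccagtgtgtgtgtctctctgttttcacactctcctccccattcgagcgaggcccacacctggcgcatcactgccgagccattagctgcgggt
Hoxa13 promoter: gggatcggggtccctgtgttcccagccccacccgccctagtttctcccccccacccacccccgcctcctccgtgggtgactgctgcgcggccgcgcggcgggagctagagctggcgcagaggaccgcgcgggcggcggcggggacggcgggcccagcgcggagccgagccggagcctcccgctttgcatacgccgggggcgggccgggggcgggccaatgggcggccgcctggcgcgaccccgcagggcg

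At Hoxa6, whose promoter overlaps an annotated UTR and is not printed, 138 of the 250 bases lay in the replicate 2 peak and 0 in either replicate 1 list. At Hoxa9 the replicate 2 peak chr6:52227399-52227865 took 222 of the 250 bases and stopped short of the start. At Hoxa11 110 bases, those farthest from the start, lay in the replicate 1 peak, and replicate 2 had 0. At Evx1 the replicate 1 peak against input took the outermost 72 bases, whereas against IgG all 250 bases lay in a peak. The Hoxa13 promoter was 80.0% G or C and held 35 CpGs, and 0 of its bases lay in a peak in any list. Only 2.97% of the 32851 RefSeq promoters, Hoxa13 included, held at least as many CpGs. At Hoxa7 and at both starts of Hoxa10, too, 0 of the 250 promoter bases lay in a peak in any list. The 8 promoters had a median of 11.5 CpGs, from 3 at Hoxa9 to 35 at Hoxa13, compared with a median of 6 over all RefSeq promoters.

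Base composition was then compared between peaks and their surroundings. Peaks at the 7 genes were richer in G and C than the full lists, with a median of 52.2% against 46.4% in replicate 1 against input, 52.6% against 46.9% with IgG as control and 52.1% against 45.1% in replicate 2. The median number of CpGs per 100 bp was 1.62 compared with 0.730, 2.23 with 0.794 and 2.41 with 0.704. Within the same windows, however, bases inside and outside peaks had nearly the same G and C content, 51.5% and 51.2% in replicate 1 against input. Inside peaks there were fewer CpGs per 100 bp than outside, 2.73 compared with 3.34 in replicate 1 against input, 3.00 with 3.31 with IgG as control and 2.96 with 3.30 in replicate 2. The part of base composition or mappability in the position of peaks was not tested.

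Overlap between the lists was then measured peak by peak. A replicate 2 peak overlapped 10 of the 49 replicate 1 peaks called against input (20.4%, 95% exact binomial interval 10.2% to 34.3%), compared with 2.85% of the full list. In the other direction 10 of 31 were overlapped (32.3%, 16.7% to 51.4%), compared with 1.90%. These windows also had a larger share of their bases under peaks than the genome, and its part in the overlap was not tested. When a replicate 2 peak within 500 bp was enough, 23 of 49 replicate 1 peaks (46.9%) had one, compared with 8.36% of the full list. Of the replicate 1 peaks called against input, 41 of 49 (83.7%) were overlapped by one called in the same H3K27me3 library against IgG, compared with 51.0% of the full list. In the other direction it was 40 of 64 (62.5%), compared with 46.6%. Between the IgG-called list and replicate 2, 15 of 64 peaks (23.4%) and 14 of 31 peaks (45.2%) were overlapped, compared with 3.32% and 2.44% of the full lists.

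By annotation, the peaks were spread over gene bodies and flanks. Exons were touched by 13 of 49 peaks in replicate 1 against input, 18 of 64 with IgG as control and 10 of 31 in replicate 2. Introns took 11, 10 and 8 peaks, and the flanks 25, 36 and 13. The share of window bases in flanks was not set beside these counts, so they do not show a preference for flanks or gene bodies. Some flank peaks lay in noncoding genes. The gene Hottip, which lies beyond the 5′ end of Hoxa13 and encodes a long RNA known to act on posterior Hoxa genes, had a window covered over 11.6%, 17.3% and 14.3%. Hoxa11os, transcribed antisense to Hoxa11, was covered over 18.5%, 20.5% and 7.35%. These values were of the same size as those of the protein-coding neighbours whose windows they share.

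The stretch was then divided into 5 adjacent sections, from the window of Hoxa2 to Hibadh, to see where coverage ended. The posterior Hoxa section was covered over 13.4% in replicate 1 against input, 17.0% with IgG as control and 13.6% in replicate 2. The mean of the replicates there was 13.5% ± 0.0887 (SD, n = 2). In the 42.617 kb between the windows of Hoxa13 and Evx1 coverage was 5.90%, 8.90% and 5.63%, and at Evx1 it returned to 18.7%, 24.6% and 10.2%. Beyond Evx1, over the 222.849 kb to Hibadh, it was 0.263%, 0.317% and 0.625%. Coverage was thus high at the posterior Hoxa genes and at Evx1, intermediate between them and low beyond Evx1 in every list.

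**Figure D5:**
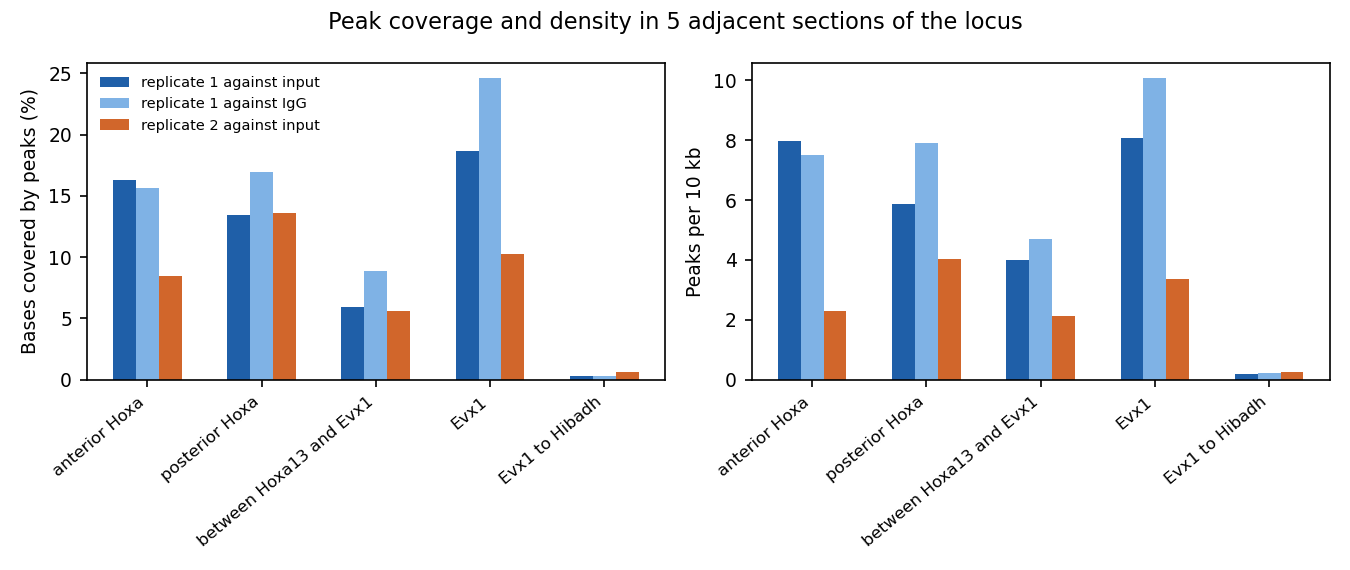
Percent of bases covered by peaks (left) and peaks per 10 kb (right) in 5 adjacent sections of chromosome 6 from Hoxa2 to Hibadh, with 1 bar per list. The section between Hoxa13 and Evx1 lay between 5.63% and 8.90%, below the posterior Hoxa and Evx1 sections and above the section beyond Evx1 in every list.

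The anterior and posterior parts of the cluster were compared next. The anterior section, from the window of Hoxa2 to that of Hoxa6, was covered over 16.3% in replicate 1 against input and 8.46% in replicate 2, and the mean was 12.4% ± 5.52 (SD, n = 2). The gene body of Hoxa5 fell within the Hoxa6 window and was counted in the posterior section. Replicate 1 against input placed the anterior part above the posterior part, at 16.3% and 13.4%. With IgG as control the same library placed it below, at 15.7% and 17.0%, as did replicate 2, at 8.46% and 13.6%. The difference between the parts was smaller than the spread between the replicates and had no constant direction. As whole sections, the replicates differed far less in the posterior part than in the anterior part. Within the posterior part, however, opposite differences between the replicates against input balanced. Coverage was 11.4% in replicate 1 and 14.4% in replicate 2 from Hoxa6 to Hoxa11, but 18.4% and 12.4% around Hoxa13. Among single anterior genes Hoxa4 stood at 19.7% in replicate 1 against input and 6.59% in replicate 2, and Hoxa5 at 13.7% and 12.97%. Peaks within 1 kb of the 5′ end in both replicates were found at 1 of the 4 genes Hoxa2, Hoxa3, Hoxa4 and Hoxa5.

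The posterior genes of the Hoxb, Hoxc and Hoxd clusters and Evx2 gave a second yardstick. Over these 19 genes the median covered share was 10.3% in replicate 1 against input, 15.1% with IgG as control and 9.06% in replicate 2, compared with 12.2%, 14.7% and 12.4% over the 7 genes. All 19 held a peak in each list, and 13 had one within 1 kb of the 5′ end in both replicates. Among the paralogues of Hoxa13, Hoxb13 was covered over 17.3%, 19.9% and 19.1%, Hoxc13 over 7.58%, 11.2% and 3.21% and Hoxd13 over 5.65%, 12.1% and 12.0%. Evx2, the partner of Evx1 beside the Hoxd cluster, was covered over 15.0%, 11.1% and 10.4%. Hoxb13 was at or above Hoxa13 in replicate 2 and below it in both replicate 1 lists, and the other paralogues were below Hoxa13 in all lists.

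Few protein-coding genes reached these levels. In both replicates against input, 51 protein-coding genes, or 0.232%, were covered at least as much as the lowest of the 7 genes in the respective list. This count includes the 7 genes themselves and other Hox genes, such as Hoxb13. How many of the 51 lay outside the Hox clusters was not counted. One of the 3 genes outside the Hox clusters nearest to the mean of the 7, by Euclidean distance over the 2 libraries, was Gbx2, a transcription factor gene of the midbrain and hindbrain boundary. Gbx2 was covered over 11.8% and 15.8% in the replicates called against input, where the means over the 7 genes were 13.1% and 14.1%.

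Genes that surround or work with the Hoxa genes were covered less than any of the 7 genes. The 5 flanking genes Skap2, Snx10, Hibadh, Tax1bp1 and Jazf1 had a median of 0.0829% in replicate 1 against input, 0.0400% with IgG as control and 0.315% in replicate 2. The 9 genes for the Hox cofactors of the Meis, Pbx and Pknox families had medians of 0.115%, 0.0217% and 0.0798%. The most covered flanking gene was Skap2, at 1.08%, 1.17% and 2.06%, which exceeded 95.7%, 95.6% and 97.3% of protein-coding genes. Among the cofactor genes Meis1 was covered over 1.51%, 1.83% and 1.48%, more than 97.0%, 97.3% and 95.4% of protein-coding genes, and Meis2 over 1.59%, 1.93% and 0.815%. The median over all protein-coding genes was 0%. As a check of the tissue label, 4, 3 and 5 of the 5 dental mesenchyme markers and 3, 3 and 2 of the 5 dental epithelium markers held a peak in the 3 lists, where the shares over all protein-coding genes were 25.0%, 25.9% and 35.7%. A repressive mark cannot settle which cells were present.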

How the data were processed

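H3K27me3 ChIP-seq libraries of molar mesenchyme were mapped by the authors with BWA to build GRCm38, reads with a unique position were sorted with SAMtools, and broad peaks were called with MACS 2.1.1.20160309 for each library without pooling (p-value cutoff 0.005). The submitters' processing notes name Partek as well. The authors deposited 3 peak lists, each holding per peak a pileup signal (mean overlapping tags, with the larger library scaled to the smaller), a fold enrichment ratio over the control, and −log10 p and −log10 q values. Per the file headers, 23688420 to 51681224 control tags were kept. Other deposited formats of the lists were not used.

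Pileup was divided by the scaled value of 1 tag (0.780, 0.805 and 1) to give mean overlapping tags. Peaks were compared with GENCODE M21 gene bodies and 5 kb flanks, an overlap was at least 1 base, and covered shares are percent of bases. Background shares are over all protein-coding genes or all nuclear peaks. Intervals are 95% exact binomial, cover counting error only and treat peaks as independent. No test was run, since the control libraries entered only through peak calling and the lists then hold 2 H3K27me3 libraries of 1 condition. Named were the 7 genes, fixed lists of Hox, noncoding, flanking and cofactor genes and tissue markers, the 3 most similar genes (some listed genes are not reported here), the peaks nearest each 5′ end, the 3 peaks of highest fold enrichment per list and the segments common to all lists. Other peaks given as examples were chosen after their values were seen. Members and lists were chosen with earlier results of these data known. The interval functions were tested on simulated data. Alternatives were other cutoffs, flanks, promoter widths and overlap rules, IgG as control, and leaving out a replicate. Python 3.11.15, numpy 2.4.6, scipy 1.17.1 and matplotlib 3.10.9 were used.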

Additional observations from a re-analysis of the deposited data

How the results depend on the processing

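Stricter cutoffs moved the results most. At a fold enrichment of 3 or higher a mean of 2 peaks and 0.601% coverage remained at the 7 genes. These were 4 peaks in replicate 1 against input and 0 in replicate 2. It followed by construction that 0 genes had a peak within 1 kb of the 5′ end in both replicates, and that the overlap was 0% (0 of 4). At a −log10 p of 3 or higher these values were 3.5 peaks, 1.34%, 0 genes and 0% (0 of 1). Replacing input by IgG for replicate 1 gave 15.7% coverage, and a 10 kb flank gave 12.8%. Without flanks a mean of 21 peaks remained. Within 2 kb of the 5′ end 7 genes had a peak in both replicates, and with a replicate 2 peak within 500 bp counted as overlap the share was 46.9%. Using 1 replicate alone gave 31 to 49 peaks, 13.2% to 14.0% coverage and 5 to 6 genes. The other 8 alternative values for these 4 results moved by less than the spread between replicates, the counting interval or 1.5 times. The cause of each change was not tested beyond its construction. No paired analysis was possible because the results come from no test, and each input library entered only as the control of the same-numbered H3K27me3 library in peak calling. Peaks had a mean of 4 to 8 overlapping tags, and the part of depth in the borders or presence of single peaks was not tested.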
